A study of Sus scrofa with 6 samples.

Results

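WNT ligands, their receptors and the main factors of the WNT pathway were followed through the reprogramming of porcine embryonic fibroblasts (PEFs) into porcine induced pluripotent stem cells (piPSCs). Members were the genes of the deposited expression table whose symbol is a numbered WNT, FZD, SFRP, DKK or RSPO gene, or is LRP5, LRP6, LGR4, LGR5, AXIN1, AXIN2, CTNNB1, LEF1, TCF7, TCF7L1 or TCF7L2. This gave 48 of the 18007 genes of the table, made up of 15 WNT ligands, 4 RSPO ligands, 4 SFRP inhibitors, 4 DKK genes, 10 FZD receptors, 2 LRP co-receptors, 2 LGR receptors, AXIN1, AXIN2 and CTNNB1, and 4 TCF/LEF factors. The rule reads symbols and no expression value, but it was chosen with earlier results of these data known. WNT5B and WNT1 are listed in the table by identifier alone, so the rule leaves them out, and their values are given apart.

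The PEF group held the fibroblast lines PEF5, PEF7 and PEF8, grown from ear tips of embryos at embryonic day 90 that had a Longwhite boar (Large White in the methods) and a Meishan sow as parents. The piPSC group held piPSC5, piPSC7 and piPSC8, which were derived from PEF5, PEF7 and PEF8 in that order with lentiviral TetO-FUW-OSKM, which carries Oct4, Sox2, Klf4 and cMyc under a doxycycline-dependent promoter, and FUW-M2rtTA, the doxycycline-dependent activator. Colonies formed in LF2i medium, whose components the methods do not list, and were picked onto mouse feeder cells. The labels give PEFs as somatic cells, although they describe the OSKM transfer in a protocol common to all libraries. Each of the 6 lines gave 1 poly-A RNA library, so the 3 lines of a group are its replicates (n = 3), and no line has a repeat of its own. These values do not separate fragments of mouse feeder cells from porcine ones.

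WNT proteins are secreted lipid-bound ligands. In the canonical branch a ligand joins a Frizzled (FZD) receptor to LRP5 or LRP6, the AXIN-based complex that marks β-catenin (CTNNB1) for breakdown is held back, and β-catenin then works with TCF/LEF factors on target genes such as AXIN2. SFRP proteins bind ligands outside the cell, DKK1, DKK2 and DKK4 bind LRP5 and LRP6, and RSPO ligands act through LGR4 and LGR5 to keep Frizzled receptors on the surface. In fibroblasts WNT5A is known for the branches that do not use β-catenin, and in pluripotent cells TCF7L1 is known as a repressor of pluripotency genes.

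Sequences just upstream of the members were read first, as a description. The window was the 300 bases before each gene's start in the table, on Sscrofa11.1, and all 48 members had one. The core bound by TCF/LEF factors (CTTTGA on either strand) lay in 6 members (12.5%) and in 13.8% of 17989 windows of the table. The AP-1 site (TGANTCA) lay in 2 members (4.17%, against 6.11%) and the octamer of POU factors (ATGCAAAT, either strand) in 3 members (6.25%, against 1.33%). The 3 members with the octamer were DKK1, LEF1 and LGR4. The start lay within 50 bases of the RefSeq start for 16 members, and AXIN2, FZD5 and LEF1 were those of the 16 with a TCF/LEF core. Their windows are shown because AXIN2 and LEF1 are themselves textbook targets of the pathway, and capitals mark the TCF/LEF core and, in LEF1, also the octamer (ATTTGCAT in this orientation). They lie at chr12:12343201-12343500 (AXIN2, minus strand), chr15:110921354-110921653 (FZD5, minus strand) and chr8:113824211-113824510 (LEF1, plus strand).
AXIN2: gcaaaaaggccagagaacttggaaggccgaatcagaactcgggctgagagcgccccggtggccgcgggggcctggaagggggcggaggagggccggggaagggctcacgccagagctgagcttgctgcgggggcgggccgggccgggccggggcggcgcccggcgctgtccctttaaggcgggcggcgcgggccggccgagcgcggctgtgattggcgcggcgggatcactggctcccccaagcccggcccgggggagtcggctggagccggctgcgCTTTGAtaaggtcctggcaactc
FZD5: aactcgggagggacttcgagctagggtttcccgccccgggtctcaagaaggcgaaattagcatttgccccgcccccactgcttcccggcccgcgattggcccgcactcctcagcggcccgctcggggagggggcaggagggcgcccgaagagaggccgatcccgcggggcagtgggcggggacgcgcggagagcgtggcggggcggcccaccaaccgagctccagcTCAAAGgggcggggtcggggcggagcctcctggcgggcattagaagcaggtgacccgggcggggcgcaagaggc
LEF1: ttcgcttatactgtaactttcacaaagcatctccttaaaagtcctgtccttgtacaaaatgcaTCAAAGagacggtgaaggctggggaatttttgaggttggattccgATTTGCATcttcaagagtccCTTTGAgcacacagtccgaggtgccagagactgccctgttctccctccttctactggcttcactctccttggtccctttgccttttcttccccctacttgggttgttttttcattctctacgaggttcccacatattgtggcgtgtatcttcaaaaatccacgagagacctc
The core began 23 bases before the start of AXIN2 and 74 bases before that of FZD5. LEF1 held it at 237 and 172 bases before the start, with the octamer between them at 192. None of these 3 genes passed the test between piPSCs and PEFs.

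The members' windows held a median of 22 CpG dinucleotides, against 13 over all windows (quartiles 5 and 25), and a median GC content of 65.3%, against 57.0%. Of the called SFRP genes, SFRP1 and SFRP5 had starts within 50 bases of the RefSeq start. Their windows, which are CpG-rich, are shown with each CG in capitals. They lie at chr17:10489756-10490055 (SFRP1, minus strand) and chr14:109125687-109125986 (SFRP5, minus strand).
SFRP1: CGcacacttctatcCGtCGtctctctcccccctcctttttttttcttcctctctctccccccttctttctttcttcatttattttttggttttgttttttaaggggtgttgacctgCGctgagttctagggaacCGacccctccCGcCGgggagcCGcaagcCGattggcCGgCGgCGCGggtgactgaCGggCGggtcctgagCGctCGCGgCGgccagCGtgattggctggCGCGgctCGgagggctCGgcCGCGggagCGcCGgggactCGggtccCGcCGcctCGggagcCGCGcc
SFRP5: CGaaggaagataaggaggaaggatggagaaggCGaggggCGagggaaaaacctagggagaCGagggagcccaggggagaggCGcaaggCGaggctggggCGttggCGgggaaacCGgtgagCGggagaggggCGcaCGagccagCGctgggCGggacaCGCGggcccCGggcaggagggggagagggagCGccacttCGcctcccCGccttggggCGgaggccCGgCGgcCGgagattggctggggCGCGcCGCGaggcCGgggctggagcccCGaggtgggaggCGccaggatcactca
SFRP1 held 34 CpGs at 65.0% GC and SFRP5 held 31 at 73.3% GC. SFRP4 and DKK3, which were also called lower, held 9 CpGs each, at 51.3% and 47.7% GC. SFRP2, which was not called, held 31 at 70.7% GC. The starts of SFRP4 and SFRP2, unlike that of DKK3, lay more than 50 bases from the RefSeq start, so their windows may lie off the promoter.

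Values are FPKM, fragments scaled by gene length and library total, and differences are on log2(FPKM + 1), as piPSC minus PEF with its standard error (SE). Libraries held between 11010629 and 17836510 fragments, with every piPSC library shallower than every PEF library, and FPKM summed to 337074 to 348943 in PEFs and to 420498 to 437853 in piPSCs. The median difference of all 12428 tested genes was 0.20, against -0.01 with libraries rescaled by their median ratio and -0.06 with libraries rescaled to a common sum. The 12 fibroblast markers checked were all called lower in piPSCs, and their summed level was 7080 to 9330 FPKM in PEFs and 251 to 474 FPKM in piPSCs. COL1A1 and COL1A2, the chains of collagen I, lay at 1627, 2822 and 869 FPKM and at 1703, 2376 and 1414 FPKM in PEF5, PEF7 and PEF8, against 58.4, 4.01 and 2.27 FPKM and 44.8, 8.39 and 4.24 FPKM in piPSC5, piPSC7 and piPSC8. THY1, a fibroblast surface protein, lay between 73.7 and 253 FPKM in PEFs and between 0.385 and 4.47 FPKM in piPSCs. Of the pluripotency markers, SOX2 lay at 3.01, 2.49 and 0.129 FPKM in piPSC5, piPSC7 and piPSC8 and at most at 0.0208 FPKM in PEFs, NANOG was above 0 in piPSC7 alone, at 0.0919 FPKM, ZFP42 and UTF1 were at 0 in every piPSC library, and POU5F1 was not analysed here. The study describes the lines as male, while DDX3Y, a Y-linked gene, had 0 fragments in the 4 libraries of lines 5 and 7 and 3439 and 4207 fragments in PEF8 and piPSC8.

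Of the 48 members, 33 reached a mean of 0.5 FPKM over the 6 libraries and were tested with limma, and 15 lay below it. Calls needed both an adjusted p below 0.05 and a change of 2-fold or more. Among the tested members 3 were called higher in piPSCs (9.09%), 12 were called lower (36.4%) and 18 were not called, while over all tested genes 20.2% were called higher and 16.7% lower, or 36.8% either way. With median-ratio scaling these shares of all genes were 15.1% and 20.2%, and with a common sum 16.0% and 22.7%, while 3 members were higher and 13 or 14 lower. Of the 33, 10 passed the level filter only through the PEF libraries and 5 only through the piPSC libraries, and such genes had to differ, so these counts describe the members and support nothing. The median difference of the 33 was -0.61. LRP6 and WNT9A had an adjusted p under 0.05 with less than a 2-fold change. Without piPSC8, 6 members were called higher, as FZD6, TCF7L1 and TCF7L2 joined the others.

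**Figure D1:**
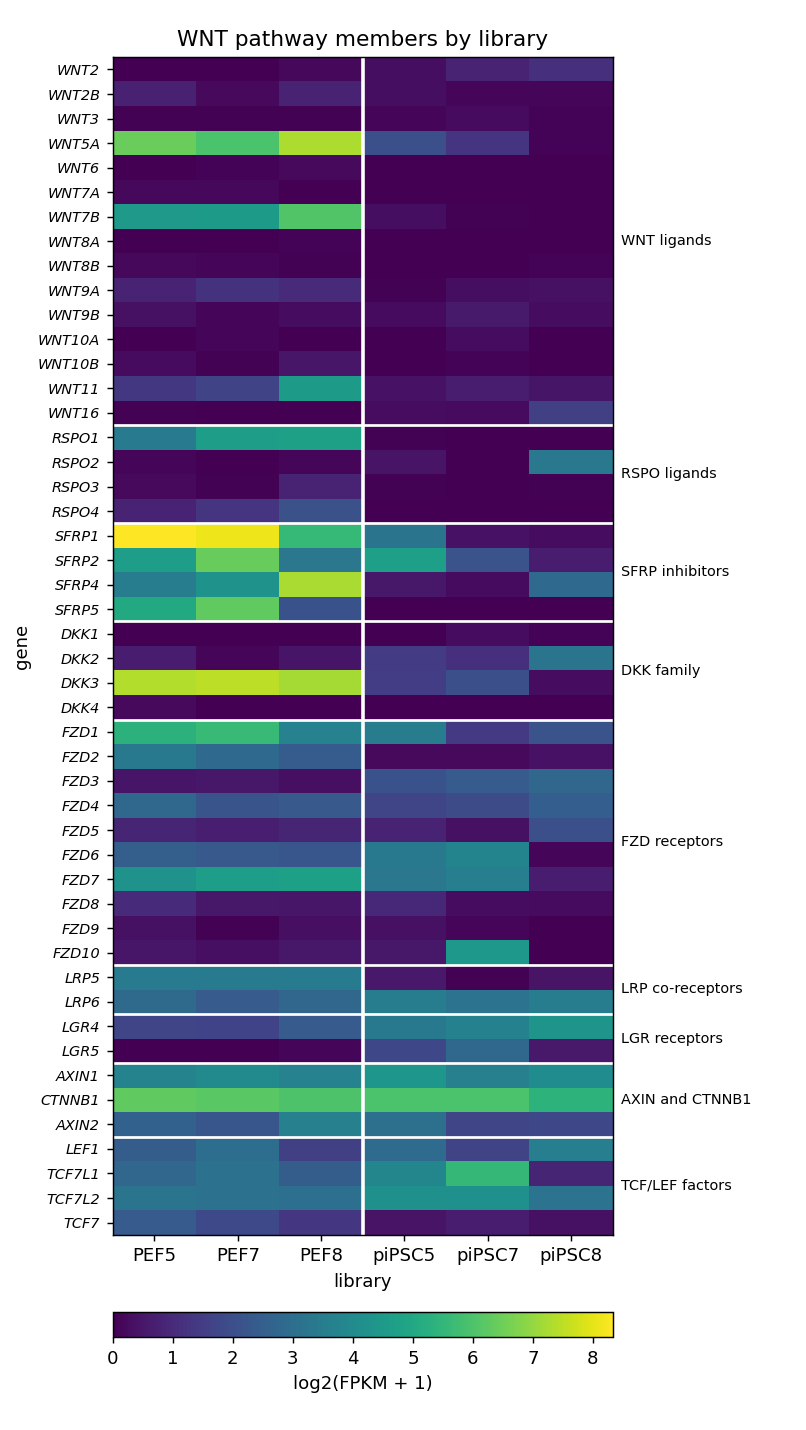
Level of all 48 members (rows, grouped by role) in the 6 libraries (columns), as log2(FPKM + 1) on the colour scale. WNT5A, WNT7B, SFRP1 and DKK3 stand out in the 3 PEF columns and are dark in the piPSC columns, while LGR4 and FZD3 are brighter in the piPSC columns and CTNNB1 is high in every column.

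**Figure D2:**
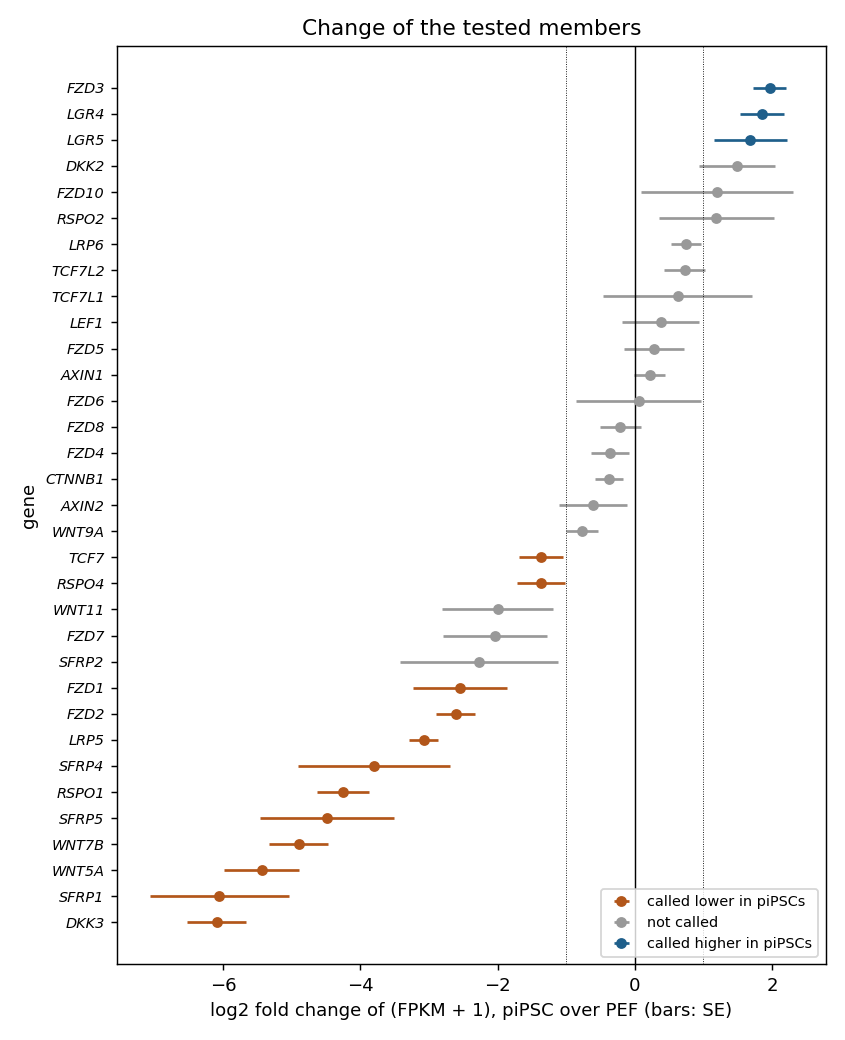
Difference of log2(FPKM + 1), piPSC over PEF, for the 33 tested members, with bars of 1 SE and dotted lines at a 2-fold change. The 12 members called lower run from -1.37 to -6.09, the 3 called higher lie between 1.68 and 1.97, and the grey points are the 18 members not called.

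Over all 48 members, tested or not, 10 were at least 2-fold lower in each piPSC line than in its own PEF line (20.8%), against 8.21% of the 18007 genes of the table. They were WNT5A, WNT7B, RSPO1, SFRP1, SFRP4, SFRP5, DKK3, FZD1, FZD2 and LRP5. LGR4 and FZD3 were at least 2-fold higher in each line, where the share of all genes was 8.82%. With 1 library a line these are counts with no test, and 15 members were lower and 6 higher in each line when 0.1 in place of 1 was added to the FPKM.

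Among the WNT ligands WNT5A and WNT7B fell, and no other ligand of the rule reached a like level in piPSCs. WNT3A and WNT4 were not found under a symbol or a named identifier, so they were not analysed here. The 15 ligands together came to 148 ± 85.1 FPKM in PEFs and 4.42 ± 0.274 FPKM in piPSCs (SD, n = 3), a ratio of 33.5. WNT5A held between 63.2% and 76.9% of that sum in each PEF library and WNT7B most of the rest. In bulk RNA, fewer cells that express a gene and less RNA per cell cannot be told apart. The fibroblast markers fell in the same libraries, and their part in this result was not tested.

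WNT5A (ENSSSCG00000035859, chr13:37344680-37366942) lay at 85.3, 61.7 and 155 FPKM in PEF5, PEF7 and PEF8 and at 3.13, 1.37 and 0.0665 FPKM in piPSC5, piPSC7 and piPSC8. The groups were far apart, and the highest piPSC library, piPSC5, came from a PEF line of middle level. WNT5A fell by 5.44 on the log2 scale (SE 0.55, limma adjusted p = 0.000675). WNT7B (ENSSSCG00000027365, chr5:3521695-3572379), a ligand that can signal through β-catenin, lay at 21.7, 22.3 and 65.5 FPKM in PEFs and at 0.249, 0.0421 and 0.0227 FPKM in piPSCs. The last 2 of these values rest on 2 and 1 fragments. WNT7B fell by 4.90 (SE 0.43, adjusted p = 0.000444). PEF8 had the highest level of both genes, and piPSC8 the lowest.

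WNT11 and WNT9A were the other tested ligands. WNT11, known for cell movements in early embryos, lay at 1.53, 2.23 and 22.0 FPKM in PEFs and at 0.334, 0.582 and 0.400 FPKM in piPSCs. The groups did not overlap, but PEF8 was far above the other PEF lines, and the difference of -1.998 did not pass (adjusted p = 0.077). WNT9A lay at 0.779, 1.33 and 0.991 FPKM against 0.0447, 0.226 and 0.305 FPKM, a difference of -0.77 (SE 0.24, adjusted p = 0.0326) that is under 2-fold on this scale. All 4 tested ligands were lower in every piPSC library than in any PEF library, where 26.8% of all tested genes were. WNT7B, WNT11 and WNT9A passed the level filter only through the PEF libraries, so this count describes the ligands and supports nothing.

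The 11 ligands under the filter had few fragments in every library. WNT2 lay at 0.0187, 0.0100 and 0.143 FPKM in PEFs and at 0.244, 0.745 and 1.18 FPKM in piPSCs, that is 16 fragments over the PEF libraries and 153 over the piPSC libraries. WNT16 had 1 fragment over the PEF libraries and 50 over the piPSC libraries, 40 of them in piPSC8. Per fragment sequenced, WNT16 was 65.5-fold higher in piPSCs, with a 95% counting interval of 11.2 to 2637. WNT2 and WNT16 are thus the ligands with more fragments in piPSCs among those under the filter, together with WNT3 (6 against 14), WNT9B (53 against 57) and WNT10A (2 against 3). Intervals and floors given here cover counting error only, since copies of 1 molecule were not marked.

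The remaining ligands leaned to PEFs or were close to 0. WNT2B had 163 fragments over the PEF libraries and 34 over the piPSC libraries, and WNT10B had 66 and 4. WNT7A had 18 fragments against 1, a ratio of 13.7 per fragment sequenced with a counting interval of 2.17 to 573. WNT8B had 7 against 1, WNT6 had 6 against 0, and WNT8A had at least 1 against 0. WNT3 and WNT9B lie head to head on chromosome 12, 145 bp apart, and WNT6 and WNT10A lie on chromosome 15, 8299 bp apart. All 4 of these neighbours stayed under 1 FPKM in every library. The library kit does not mark strand, so fragments at the edge of such pairs cannot be assigned to a gene by strand.

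The make-up of the small ligand sum differed between piPSC lines. WNT5A was 66.1% of the ligand sum in piPSC5, 32.4% in piPSC7 and 1.54% in piPSC8. In piPSC8 WNT16 held 45.4% and WNT2 27.4%. The sums themselves were close, at 4.73, 4.21 and 4.32 FPKM. WNT5B (ENSSSCG00000000759), which is outside the rule, lay at 25.1, 16.4 and 8.76 FPKM in PEFs and at 0.398, 0.0775 and 0.0419 FPKM in piPSCs, and its difference was -3.82 (SE 0.38, adjusted p = 0.000633). WNT1, listed by identifier too, had at least 2 fragments, all in piPSC7, and overlaps WNT10B by position.

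**Figure D3:**
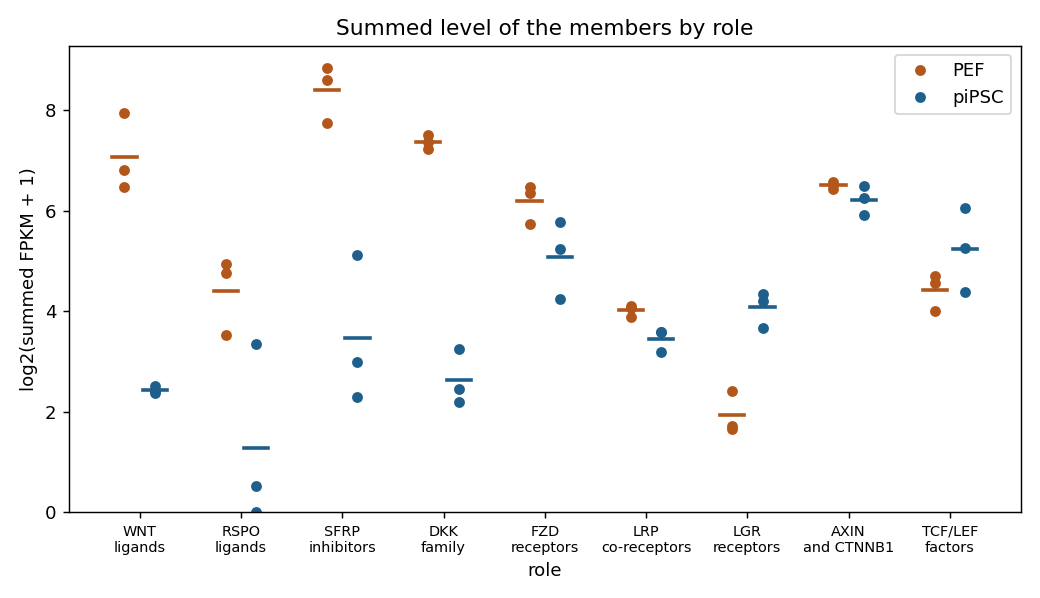
Summed level of the members of each role in each library (points), as log2(summed FPKM + 1), with a bar at the mean of the 3 lines. The PEF and piPSC points are widely apart for WNT ligands (148 and 4.42 FPKM on average), SFRP inhibitors and the DKK family, LGR receptors are higher in piPSCs, and the points of the TCF/LEF factors overlap.

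RSPO ligands summed to 22.1 ± 10.1 FPKM in PEFs and 3.19 ± 5.15 FPKM in piPSCs. RSPO1 (ENSSSCG00000032240, chr6:93665749-93690660) made up at least 86.5% of the sum in each PEF library, with 9.63, 24.7 and 25.6 FPKM in PEF5, PEF7 and PEF8. In piPSC5 it had 1 fragment (0.0374 FPKM), and in piPSC7 and piPSC8 it had 0. RSPO1 fell by 4.26 (SE 0.38, adjusted p = 0.000444), and its 1725 PEF fragments against 1 gave a ratio of 1317 per fragment sequenced, with a 95% counting interval of 236 to 52063. RSPO4 lay at 0.734, 1.39 and 3.17 FPKM in PEFs and at 0 in every piPSC library. This was at least 14.8-fold lower in piPSCs, counting 3 fragments over the group as the floor, or at least 9.15-fold lower without PEF8. The fitted difference of RSPO4 was -1.37 (SE 0.35, adjusted p = 0.0175), and the call was lost without piPSC5 (adjusted p = 0.0511).

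RSPO2 was seen mainly in 1 piPSC line. It lay at 0.0769, 0 and 0.0906 FPKM in PEFs and at 0.365, 0 and 9.09 FPKM in piPSC5, piPSC7 and piPSC8. Of its 77 piPSC fragments, 73 came from piPSC8, and the difference of 1.18 did not pass (SE 0.84, adjusted p = 0.269). RSPO3 had 36 fragments over the PEF libraries, 28 of them in PEF8, and 2 over the piPSC libraries. In piPSC7 all 4 RSPO genes were at 0.

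SFRP inhibitors of the rule carried the largest sum of any role in PEFs, 352 ± 125 FPKM, against 14.9 ± 16.4 FPKM in piPSCs. SFRP1 (ENSSSCG00000025822, chr17:10436411-10489755), whose CpG-rich window is shown above, lay at 320.0, 278 and 47.2 FPKM in PEFs and at 8.23, 0.318 and 0.214 FPKM in piPSCs. Every piPSC value lay below every PEF value, with piPSC5 above the other piPSC lines. SFRP1 fell by 6.05 (SE 1.02, adjusted p = 0.00364), and the difference was -6.93 without PEF8 and -7.01 without piPSC5. SFRP5 (ENSSSCG00000010529, chr14:109119822-109125686) lay at 32.1, 77.5 and 3.30 FPKM in PEFs and had no fragment in any piPSC library. Its 3378 PEF fragments put SFRP5 at least 859.9-fold lower in piPSCs with a floor of 3 fragments over the group, or at least 421-fold lower without PEF7. The fitted difference was -4.48 (SE 0.98, adjusted p = 0.00973), and voom on the recovered fragments did not keep the call (adjusted p = 0.0539).

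SFRP4 (ENSSSCG00000035299) lay at 10.2, 18.3 and 154 FPKM in PEF5, PEF7 and PEF8 and at 0.453, 0.191 and 6.19 FPKM in piPSC5, piPSC7 and piPSC8. Line 8 was highest in both groups. SFRP4 fell by 3.80 (SE 1.11, adjusted p = 0.0275) in the unpaired fit and with the line as a block (adjusted p = 0.00393), but the call was lost without PEF7 (0.0522), piPSC5 (0.0867) or piPSC7 (0.0816), with no level filter (0.052) and with voom (0.123). The difference was -2.67 without PEF8, -4.56 without PEF5 and -4.62 without piPSC8. SFRP2 lay at 24.2, 82.1 and 8.75 FPKM in PEFs and at 25.04, 3.38 and 0.597 FPKM in piPSCs. The groups overlapped, since piPSC5 kept the level of PEF5 (a log2 ratio of 0.05), whereas piPSC7 and piPSC8 were lower than their own PEF lines by 4.25 and 2.61 on the log2 scale. The difference of -2.27 did not pass (adjusted p = 0.141), and without piPSC5 it was -3.37 and was called (adjusted p = 0.0402). SFRP2 was 74.2% of the SFRP sum in piPSC5 and 86.9% in piPSC7, and SFRP4 was 88.4% in piPSC8. FRZB, also named SFRP3, is outside the rule and outside these sums. It lay at 0.258, 0.276 and 2.30 FPKM in PEFs and at 2.71, 17.5 and 0 FPKM in piPSCs. Its piPSC7 value was above the SFRP sum of that library, 3.89 FPKM. The difference of FRZB, 1.23 (SE 1.03), did not pass (adjusted p = 0.344).

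The DKK family was DKK3 in PEFs and a mixture of DKK2 and DKK3 in piPSCs. DKK3 (ENSSSCG00000013401, chr2:47385239-47444661), a secreted family member that, unlike DKK1, is not known to bind LRP5 or LRP6 tightly, lay at 163, 181 and 148 FPKM in PEFs and at 1.85, 3.11 and 0.199 FPKM in piPSCs. The 3 PEF lines were close to each other, and every piPSC line was far below them. DKK3 fell by 6.09 (SE 0.43, adjusted p = 0.000266). This was the largest decrease among the members with 1 added to the FPKM, whereas with 0.1 added SFRP5 (-7.67), WNT7B (-7.44), RSPO1 (-7.37) and SFRP1 (-7.29) lay beyond DKK3 (-7.05), and with a common sum SFRP1 (-6.97) lay beyond it (-6.90). DKK2 lay at 0.571, 0.115 and 0.400 FPKM in PEFs and at 1.74, 1.16 and 8.22 FPKM in piPSCs. All piPSC values of DKK2 were above all PEF values, where 37.3% of all tested genes were, and the difference of 1.49 (SE 0.55) had an adjusted p of 0.0595. DKK2 passed the level filter only through the piPSC libraries. DKK2 held at most 0.348% of the DKK sum in a PEF library and 48.5%, 25.8% and 97.1% of it in piPSC5, piPSC7 and piPSC8. DKK1 had 6 fragments, 5 of them in piPSC7, and DKK4 had at least 1, in PEF5 alone.

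The 10 Frizzled receptors summed to 73.6 ± 19.1 FPKM in PEFs and 36.2 ± 18.0 FPKM in piPSCs, a ratio of 2.03. FZD1 and FZD2 fell, FZD3 rose, and 6 of the 9 tested receptors were not called. FZD1 (ENSSSCG00000036436, chr9:71349699-71354409) lay at 39.7, 48.8 and 11.8 FPKM in PEFs and at 10.3, 1.64 and 3.35 FPKM in piPSCs. PEF8 was only a little above piPSC5. The difference was -2.55 (SE 0.69, adjusted p = 0.0205), and it was lost without PEF5 (0.0695), PEF7 (0.0692), piPSC7 (0.0585) or piPSC8 (0.0549). It was -3.15 without PEF8. FZD2 (ENSSSCG00000029838, chr12:18740653-18742350) lay at 9.41, 6.13 and 4.39 FPKM in PEFs and at 0.157, 0.149 and 0.321 FPKM in piPSCs. FZD2 fell by 2.61 (SE 0.29, adjusted p = 0.000849), and each piPSC line had at most 6 fragments of it.

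FZD3 (ENSSSCG00000009679, chr14:12281098-12387425), a receptor known for axon guidance and planar cell polarity, lay at 0.383, 0.453 and 0.265 FPKM in PEFs and at 3.32, 4.21 and 5.74 FPKM in piPSCs. The lowest piPSC line was well above the highest PEF line. FZD3 rose by 1.97 (SE 0.24, adjusted p = 0.00119), and it passed the level filter only through the piPSC libraries. NEUROG2, a neural progenitor factor, was also higher in those libraries, at 27.5, 36.4 and 1.33 FPKM in piPSC5, piPSC7 and piPSC8 and at most 0.242 FPKM in PEFs. Among piPSCs NEUROG2 was lowest in piPSC8, where FZD3 was highest. Of the same list FABP7 was called higher too, at 2.07, 0.231 and 2.45 FPKM in piPSC5, piPSC7 and piPSC8. FABP7 was thus highest in piPSC8, as FZD3 was. PAX6 and NES were not called, and POU3F2 was under the filter. NES lay at 14.5, 0.969 and 5.73 FPKM in PEFs and at 4.25, 0.900 and 0.368 FPKM in piPSCs. The summed level of the 5 neural progenitor markers was 6.22 to 17.9 FPKM in PEFs and 5.21 to 42.7 FPKM in piPSCs. The part of neural-type cells in the FZD3 result was not tested.

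FZD7, FZD6 and FZD10 turned on single lines. FZD7, a receptor of the surface of human pluripotent cells, lay at 18.1, 23.9 and 25.8 FPKM in PEFs and at 8.96, 10.9 and 0.545 FPKM in piPSCs. The groups did not overlap, and the difference of -2.04 (SE 0.75) had an adjusted p of 0.0595. Without piPSC8 it was -1.10 and was called (adjusted p = 0.0119), as it was without piPSC7, with quantile normalization and with median-ratio scaling. FZD6 lay at 4.80, 4.01 and 3.71 FPKM in PEFs and at 9.39, 12.6 and 0.0850 FPKM in piPSC5, piPSC7 and piPSC8. It was thus above the PEF range in piPSC5 and piPSC7 and rested on 2 fragments in piPSC8. The difference over all lines was 0.05 (adjusted p = 0.964), and without piPSC8 it was 1.20 (adjusted p = 0.00939).

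FZD10 lay at 0.417, 0.274 and 0.454 FPKM in PEFs and at 0.457, 20.9 and 0 FPKM in piPSC5, piPSC7 and piPSC8. Of its 446 piPSC fragments, 434 were in piPSC7. The difference of 1.20 (SE 1.11, adjusted p = 0.39) therefore belonged to piPSC7, and without it the difference was -0.19. FZD4 lay between 3.51 and 5.80 FPKM in PEFs and between 2.36 and 4.55 FPKM in piPSCs, and its difference was -0.37 (adjusted p = 0.297). FZD5 lay between 0.615 and 0.822 FPKM in PEFs and at 0.788, 0.299 and 3.07 FPKM in piPSCs, with a difference of 0.28 (adjusted p = 0.61). FZD8 (means of 0.633 and 0.424 FPKM) differed by -0.21 (adjusted p = 0.571), and FZD9 had 23 fragments over the PEF libraries and 14 over the piPSC libraries.

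**Figure D4:**
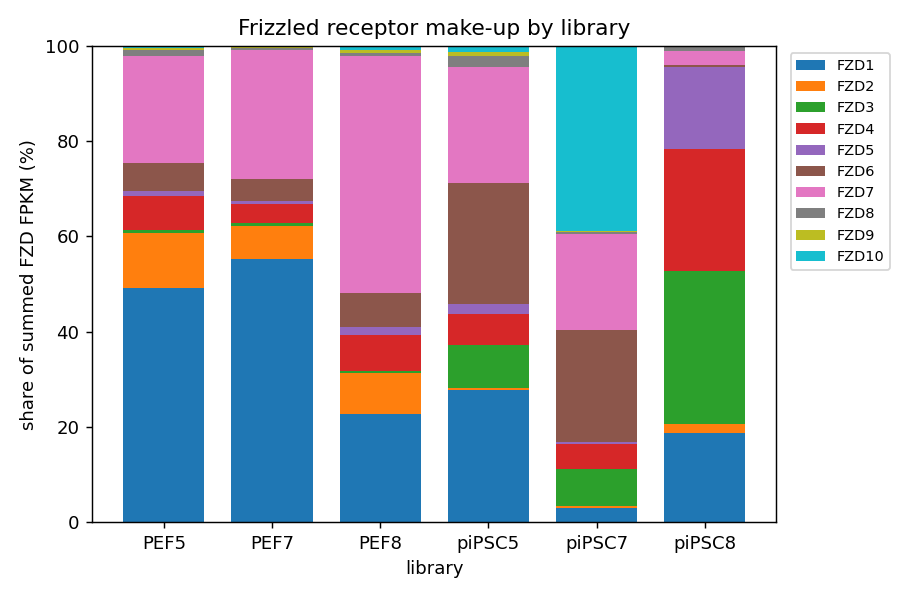
Share of each Frizzled gene in the summed FZD FPKM of each library, in percent. FZD1 and FZD7 together make up most of every PEF bar, FZD6 and FZD7 take a large share in piPSC5 and piPSC7, FZD10 holds 38.8% in piPSC7, and FZD3 and FZD4 hold 32.2% and 25.5% in piPSC8.

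The leading Frizzled gene differed between libraries. FZD1 led in PEF5 (49.2%) and PEF7 (55.3%), and FZD7 led in PEF8 (49.7%). Among piPSCs, FZD1 led in piPSC5 with 27.8%, FZD10 in piPSC7 with 38.8% and FZD3 in piPSC8 with 32.2%. FZD3 held at most 0.514% in a PEF library.

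The larger share of the co-receptor pair was LRP5 in PEFs and LRP6 in piPSCs. LRP5 (ENSSSCG00000012885, chr2:4532736-4653863) lay at 9.77, 9.60 and 10.0 FPKM in PEF5, PEF7 and PEF8 and at 0.489, 0.0426 and 0.345 FPKM in piPSC5, piPSC7 and piPSC8. The PEF lines were almost equal, and the piPSC lines had 58, 4 and 30 fragments. LRP5 fell by 3.08 (SE 0.21, adjusted p = 0.00025). LRP6 (ENSSSCG00000000625, chr5:60149026-60314764) lay at 6.41, 4.20 and 5.71 FPKM in PEFs and at 10.5, 8.09 and 10.6 FPKM in piPSCs. Its groups did not overlap, and the difference of 0.75 (SE 0.21, adjusted p = 0.0249) was under 2-fold. The adjusted p rose above 0.05 with median-ratio scaling (0.51, adjusted p = 0.0754), with a common sum (0.50, adjusted p = 0.129) and without PEF7 (0.0749), PEF8 (0.0537), piPSC5 (0.0846) or piPSC8 (0.0647). LRP5 was 60.4% to 69.6% of the pair in PEFs and 0.525% to 4.43% in piPSCs, and the sum was 15.2 ± 1.26 FPKM in PEFs and 10.0 ± 1.66 FPKM in piPSCs.

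LGR receptors, which bind RSPO ligands, summed to 16.2 ± 3.999 FPKM in piPSCs and 2.93 ± 1.21 FPKM in PEFs. LGR4 (ENSSSCG00000013335, chr2:32871904-32979148) lay at 2.31, 2.16 and 4.23 FPKM in PEFs and at 9.24, 11.6 and 18.9 FPKM in piPSCs. The lowest piPSC line was above the highest PEF line, and line 8 was highest in both groups. LGR4 rose by 1.85 (SE 0.32, adjusted p = 0.00424). LGR5 (ENSSSCG00000030511, chr5:35462254-35596150), a marker of adult stem cells and a target of the pathway, had 0, 0 and 7 fragments in PEFs and lay at 2.497, 5.93 and 0.498 FPKM in piPSCs. All piPSC values were above the PEF values, but piPSC8 was near 0.5 FPKM. LGR5 was called at 1.68 (SE 0.54, adjusted p = 0.037) through its piPSC libraries alone. The call was lost with the line as a replicate block (adjusted p = 0.0517), with no level filter (0.0595) and without PEF5 (0.094), PEF7 (0.0926), PEF8 (0.0784), piPSC5 (0.0965) or piPSC7 (0.0612, at a difference of 1.15).

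Neither β-catenin nor its AXIN partners were called. CTNNB1 (ENSSSCG00000011274, chr13:25159603-25208313) lay at 76.8, 72.3 and 62.5 FPKM in PEFs and at 62.0, 61.3 and 40.8 FPKM in piPSCs. Every piPSC value was under every PEF value, with piPSC5 next to PEF8, and the difference was -0.38 (SE 0.20, adjusted p = 0.159). It was -0.65 with median-ratio scaling (adjusted p = 0.0302) and -0.71 with a common sum (adjusted p = 0.0338), under 2-fold in both. AXIN1, a scaffold of the complex that breaks β-catenin down, lay at 12.2, 14.9 and 11.96 FPKM against 19.9, 11.3 and 15.6 FPKM. Its difference of 0.22 (adjusted p = 0.456) became -0.036 with median-ratio scaling and -0.090 with a common sum. AXIN2, both part of that complex and a target gene, lay at 5.03, 3.66 and 11.5 FPKM in PEFs and at 7.38, 2.32 and 2.53 FPKM in piPSCs. The ranges of AXIN2 overlapped, and the difference of -0.61 (SE 0.50) had an adjusted p of 0.332. Compared within lines, AXIN2 was higher in piPSC5 than in PEF5 by 0.48 on the log2 scale, and lower in piPSC7 and piPSC8 by 0.49 and 1.82.

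Of the 4 nuclear factors only TCF7 was called, and their sum was 40.8 ± 22.9 FPKM in piPSCs and 21.0 ± 5.23 FPKM in PEFs. TCF7 (ENSSSCG00000030680, chr2:136422712-136456200) lay at 4.28, 2.60 and 1.498 FPKM in PEFs and at 0.367, 0.572 and 0.283 FPKM in piPSCs, and it fell by 1.37 (SE 0.32, adjusted p = 0.0121). TCF7L1 lay at 5.69, 7.83 and 4.46 FPKM in PEFs and at 13.2, 45.3 and 0.805 FPKM in piPSC5, piPSC7 and piPSC8. This was above the PEF range in piPSC5 and piPSC7 and below it in piPSC8. The difference of 0.63 (SE 1.08) had an adjusted p of 0.648, and without piPSC8 it was 1.90 (adjusted p = 0.031). TCF7L2, a factor that carries β-catenin onto DNA in many tissues, lay at 8.24, 7.65 and 7.23 FPKM in PEFs and at 17.0, 17.2 and 8.09 FPKM in piPSCs. Here too piPSC8 stayed near the PEF lines. The difference was 0.72 (SE 0.30, adjusted p = 0.0792), and 1.06 without piPSC8 (adjusted p = 0.00627).

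LEF1, whose window held both TCF/LEF cores and the octamer, lay at 4.53, 7.12 and 1.98 FPKM in PEFs and at 6.49, 2.28 and 10.8 FPKM in piPSCs. The groups overlapped, and the difference was 0.37 (SE 0.56, adjusted p = 0.595). LEF1 and TCF7L1 stood in opposite order among the piPSC lines. LEF1 was highest in piPSC8, where it made 54.1% of the TCF/LEF sum, and lowest in piPSC7, where TCF7L1 made 69.4%. TCF7L2 led in piPSC5 with 45.8%.

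The piPSC lines differed among themselves in many members, led by TCF7L1 and FZD10. The median SD of log2(FPKM + 1) over the 3 piPSC lines was 0.57 for the 33 tested members and 0.27 for all tested genes, and over the 3 PEF lines it was 0.31 and 0.26. An SD above 1 was found for 11 members in piPSCs (33.3%, against 8.09% of all tested genes) and for 6 in PEFs (18.2%, against 4.46%). These are descriptions with no test. Of all 48 members, 11 spanned at least 2 on the log2 scale among piPSC lines. They were TCF7L1, FZD10, SFRP2, FZD6, RSPO2, FZD7, SFRP1, SFRP4, LGR5, DKK2 and FZD1. The line farthest from the other two was piPSC8 for 7 of them, piPSC5 for 3 and piPSC7 for 1. In piPSC8, TCF7L1, FZD6, FZD7 and LGR5 were low, and RSPO2, SFRP4 and DKK2 were high. That library was also the shallowest, had the most genes at 0 (3902) and came from the only line with fragments of the Y-linked DDX3Y. The part of depth, of genes at 0 and of sex in this spread was not tested.

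Other genes of the pathway were taken from 7 lists of 104 genes, of which 95 were in the table and 84 were tested. Of these 8 were called higher (9.52%) and 21 lower, against 20.2% and 16.7% of all tested genes, with a median difference of -0.18. With the line as a replicate block 6 were higher and 19 lower. The number called higher was 5 without PEF5, 2 without PEF7, 5 without PEF8 and 4 without piPSC5. With median-ratio scaling 5 were higher and 24 lower, and with a common sum 5 and 27. Of those called, APC2, CXXC4 and SOSTDC1 passed the level filter only through the piPSC libraries. LYPD6, MSX1, MSX2, NFATC1, NFATC2, NKD1, NKD2 and RNF43 passed it only through the PEF libraries. Such genes had to differ, so these counts describe the lists and support nothing. PORCN and WLS, genes of WNT production and release, were lower, and so was NOTUM, which was listed with them. PORCN attaches the lipid to WNT proteins and WLS carries them to the surface, whereas NOTUM removes the lipid again. The differences of PORCN, WLS and NOTUM were -3.50, -2.71 and -2.41. PORCN lay at 81.8, 59.8 and 22.8 FPKM in PEFs and at 6.13, 5.74 and 0.705 FPKM in piPSCs (SE 0.69, adjusted p = 0.00641).

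Among 11 tested target genes outside the rule, 8 were called lower and 1 higher, where 16.7% and 20.2% of all tested genes were. The members AXIN2, LEF1 and LGR5 are targets too and are not in this count. AXIN2 and LEF1 were not called, and LGR5 was called higher. CD44, a surface receptor for hyaluronan, had the largest decrease of the lists on log2(FPKM + 1), from 105, 98.5 and 97.8 FPKM to 1.79, 1.18 and 1.41 FPKM (-5.37, SE 0.16, adjusted p = 6.70e-05). The others called lower were CCND1, TWIST1, MSX1, MSX2, NKD1, NOTUM and RNF43. Of these, MSX1, MSX2, NKD1 and RNF43 passed the level filter only through the PEF libraries, so the count is a description. ZNRF3, a ligase that removes Frizzled receptors and that RSPO ligands hold back through LGR4 and LGR5, was the listed target called higher. It lay at 1.34, 1.24 and 0.543 FPKM in PEFs and at 6.84, 8.16 and 8.72 FPKM in piPSCs, and rose by 2.14 (SE 0.24, adjusted p = 0.000878). Its relative RNF43 fell by 1.12 (adjusted p = 0.00601). Several of these genes have known roles in fibroblasts outside the WNT pathway, and the fibroblast markers given above fell in the same libraries. Their part in these counts was not tested, and RNF43, ZNRF3, NOTUM and NKD1 each stand in a second list as well.

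The remaining lists are small and are given as counts beside the same shares of all genes, 16.7% lower and 20.2% higher. Some of their called genes, named above, passed the level filter through 1 group only, so these counts are descriptions too. Of 9 other receptors, co-receptors and surface proteins, among them the ligases ZNRF3 and RNF43, 4 were called lower and 1, ZNRF3, higher. GPC4, a surface proteoglycan, lay at 54.8, 57.4 and 27.5 FPKM in PEFs and at 3.51, 12.5 and 0 FPKM in piPSCs (-3.53, SE 0.89, adjusted p = 0.0166). Of 24 cytoplasmic transducers 3 were called in each direction and 18 were not called. NKD2, an inhibitor that binds Dishevelled, fell by 4.52 (SE 0.46, adjusted p = 0.000673), while AMER1 and APC2, partners of the β-catenin breakdown complex, rose by 1.40 (adjusted p = 0.00437) and 1.17 (adjusted p = 0.0203). Of 21 genes of the planar cell polarity and calcium branch 4 were lower (19.0%) and 2 higher (9.52%), so the share lower was near that of all genes. Its largest change was that of DAAM2, a formin downstream of Dishevelled, -4.04 (SE 0.59, adjusted p = 0.00217). Of 15 nuclear partners 1 was called in each direction. The one higher was PYGO1, at 1.499 (SE 0.51, adjusted p = 0.0448). Of 6 other inhibitors, secreted or at the cell surface, WIF1 was called lower and SOSTDC1 higher. SOSTDC1, an antagonist at LRP5 and LRP6, rose by 2.16 (SE 0.60, adjusted p = 0.0232), from 1 fragment over the PEF libraries to 404 over the piPSC libraries.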

How the data were processed

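Poly-A RNA of 3 PEF and 3 piPSC lines was read from both ends over 150 bp with a kit that does not mark strand. The authors deposited FPKM per gene, with identifiers and coordinates. The submitters' processing notes name Bowtie2 2.2.3, HISAT2 2.1.0, HTSeq 0.6.0 and Sscrofa11.1, without their roles. The annotation release and the treatment of reads shared between genes are not given in the sources used here. Identifiers without a symbol stand for 3375 of the 18007 genes, and a reference table named 902 of them.

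FPKM were whole multiples of 1 fragment for all 18007 genes (tolerance 0.02 fragments), which gave the fragments and the totals of 11010629 to 17836510 per library. In simulated libraries the fragments of 464 of 490 genes were recovered exactly, and the rest were low by a factor that was whole or nearly so. The smallest gene length that gave whole fragments was taken, so the fragments of genes seen in a single library are lower bounds. A floor is 3 fragments over a group, and ratios of 1 to 3 fragments carry a 95% interval. Both cover counting error only.

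Groups were compared with limma 3.58.1 (trend, two-sided, R 4.3.3) on log2(FPKM + 1). The fit held the 12428 genes whose mean reached 0.5 FPKM, with Benjamini-Hochberg adjustment over all of them. The pseudocount of 1 understates changes of low genes. The study's statistics section names an unpaired test, so lines were not paired in the main fit. For RNA, however, the study compared each piPSC line with its own PEF line. A block for the line is among the alternatives below. Same-numbered PEF and piPSC libraries share their line of origin, which pairs them. Their deviations from the group mean had correlations of 0.0921, 0.0946 and 0.08, and those of other pairs -0.121 to 0.0553. In a simulation with 12428 genes, of which only 200 were changed 4-fold, 110 of the 200 were called (55%), with 6 others. Far more genes, 4575, were called in the data, so this share may not carry over to them. With 3 against 3 an exact permutation test cannot go below 0.1, so none is given. The sources do not say that each line came from a different embryo, and p-values measure the spread between these lines.

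Members and lists were chosen with earlier results of these data known. Every member is named. Called members are given in all 6 libraries, and of the other pathway genes the 5 largest decreases and 5 largest increases among those called are given with values. WLS, NOTUM, RNF43, WIF1, the other called target genes and FRZB were added after their values were seen. Pathway genes CCN4, CCN5, CDX2, CER1, LGR6, PYGO2, TBL1X, TBXT and TLE5 were not analysed here. Marker lists of keratinocytes, chondrocytes, endothelial, immune, melanocyte, trophoblast, primitive endoderm and mesoderm cells were checked beside those of fibroblasts, pluripotent and neural cells. Alternatives were a block for the line, adding 0.1 in place of 1, no filter, a mean of at least 1 FPKM, quantile normalization, rescaling to the median ratio or to a common sum, no trend, voom on recovered fragments and leaving out each library. Upstream windows were read from the RefSeq genome of Sscrofa11.1. Python 3.11.15 with pandas 2.3.3, numpy 2.4.6, scipy 1.17.1 and matplotlib 3.10.9 was used for the rest.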

Additional observations from a re-analysis of the deposited data

How the results depend on the processing

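Over 492 comparisons of a tested member with an alternative, 444 kept direction and side of the threshold, 18 lost a call, 15 gained one and 15 turned direction. Of 15 called members, 10 kept their call under every alternative that tested them, and FZD1, LGR5, RSPO4, SFRP4 and SFRP5 lost it in at least 1. The replicate block took away LGR5 (1.68, adjusted p = 0.0517), leaving 2 members called higher and 12 lower, and changed no other member's call. Direction turned in 7 members, none of them called. The median ratio gave AXIN1 -0.036 and FZD6 -0.16, equal sums gave AXIN1 -0.090 and FZD6 -0.47, a pseudocount of 0.1 gave FZD6 -0.60, voom gave FZD6 -0.66 and quantile normalization gave FZD8 0.00207. Leaving out 1 library gave FZD10 between -0.19 (without piPSC7) and 2.03, FZD5 between -0.19 (without piPSC8) and 0.63, FZD6 between -0.62 (without piPSC7; also below 0 without PEF8 or piPSC5) and 1.20, LEF1 between -0.043 (without piPSC8; also below 0 without PEF8) and 0.88, and TCF7L1 between -0.44 (without piPSC7) and 1.90. The cause was not tested.

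Leaving out 1 library gave 4049 to 4639 called genes (4575 with all), 2 to 6 members higher, 10 to 12 members lower, 2 to 9 other pathway genes higher and 16 to 23 lower. Both rescalings gave 5 other pathway genes higher in place of 8. Members at least 2-fold higher in each line numbered 6 with a pseudocount of 0.1, 0 at 4-fold and 2 to 4 without 1 pair, and those lower numbered 10 to 14 without 1 pair. Summed levels are given as the mean over lines of the log2 ratio of (sum + 1). For AXIN and CTNNB1 this was -0.29, and -0.56 with the median ratio, -0.62 with equal sums and -0.047 without CTNNB1. For LRP it was -0.56, and -0.81, -0.91 and, without LRP6, -3.08. Without the most abundant member DKK turned from -4.73 to 1.49, FZD moved from -1.10 to -0.54, LGR from 2.14 to 1.68, RSPO from -3.12 to -0.25 and WNT ligands from -4.64 to -3.44. Libraries of 11010629 to 17836510 fragments leave the 15 untested members with few fragments, and these have counting intervals or fragment sums but no test across lines.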

Other observations

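Markers of other cell types gave the following summed levels. Trophoblast markers summed to 3.86 to 10.1 FPKM in PEFs and 0.0207 to 0.405 FPKM in piPSCs, primitive endoderm markers to 50.9 to 85.5 FPKM and 0.232 to 3.29 FPKM, and immune markers to 10.4 to 22.8 FPKM and 1.10 to 3.26 FPKM. The primitive endoderm sum was nearly all PDGFRA, at 73.1, 50.7 and 76.9 FPKM in PEFs, which is also in the fibroblast list, while GATA6 lay at 0.0320 to 0.136 FPKM in PEFs and at 0.549, 0.815 and 0 FPKM in piPSCs. In the immune list CD14 alone was called lower, and CD68 lay at 0.786 to 2.29 FPKM in PEFs and 0.804 to 2.71 FPKM in piPSCs. Melanocyte markers summed to 10.1 to 28.7 FPKM in PEFs and 4.14 to 4.83 FPKM in piPSCs. Of these MLANA lay at 8.12, 7.84 and 25.6 FPKM in PEFs and at 0 in piPSCs, whereas MITF lay at 2.16 to 2.89 FPKM in PEFs and 3.69 to 4.18 FPKM in piPSCs. Keratinocyte markers lay at 3.04 to 3.35 FPKM and 4.74 to 9.09 FPKM, chondrocyte markers at 0.808 to 4.603 FPKM and 0.547 to 4.39 FPKM, endothelial markers at 0.513 to 2.59 FPKM and 0.0382 to 1.15 FPKM, and primitive streak and mesoderm markers at 2.82 to 4.72 FPKM and 1.56 to 2.77 FPKM. The 8 pluripotency markers in the table summed to 0.0281 to 0.341 FPKM in PEFs and 3.35 to 9.03 FPKM in piPSCs. LIN28B, among them, lay at 2.51, 0.281 and 8.90 FPKM in piPSC5, piPSC7 and piPSC8.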
